A study of Mus musculus with 8 samples.

Results

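Chemokines are small secreted proteins that direct the movement of leukocytes, and the chemokine receptors are the G protein-coupled receptors that read them. The genes were taken by symbol from the GENCODE M21 annotation: names beginning with Ccl or Cxcl and a digit, the numbered Ccr, Cxcr and Ackr receptors, and Cx3cl1, Cx3cr1, Xcl1, Xcr1 and Ccrl2. The rule found 70 gene records with 65 different symbols among the 29621 genes of the deposited files, 47 of them for ligands and 23 for receptors. Total RNA of perfused whole pancreas was sequenced after ribosomal depletion, from C57BL/6 mice at postnatal day 42 (6 weeks). KPC-OG mice (4 libraries) carried p48-Cre, in which Cre recombinase is driven from the Ptf1a locus of pancreatic progenitor and acinar cells, a Cre-activated oncogenic allele, floxed Trp53 (Trp53fl/fl), and the Cre-dependent R26tm1(LSL-OG) allele. KPC mice (4 libraries) carried the same alleles without R26tm1(LSL-OG). The series presents KPC-OG as an antigenic form of the KPC pancreatic cancer model. The labels do not say that each library came from a separate mouse, so the p-values measure the spread between libraries, and in whole tissue fewer cells of a type and less RNA per cell cannot be told apart.

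Ligands of the CC and CXC classes differ in the spacing of their first cysteines, and most bind more than 1 receptor. Inflammatory chemokines such as Ccl2 recruit monocytes, macrophages or neutrophils to injured tissue, whereas homeostatic ones such as Ccl19, Ccl21 and Cxcl13 place lymphocytes and dendritic cells in lymphoid tissue. Atypical receptors bind chemokines without G protein signalling, and several of them remove chemokine from tissue. In pancreatic cancer models the Ccl2 and Ccr2 pair is known for monocyte recruitment and the Cxcr2 ligands for neutrophil recruitment.

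The libraries held 13671606 to 18292115 estimated reads in KPC-OG and 7373286 to 11292570 in KPC. Lars2, a mitochondrial leucyl-tRNA synthetase gene, took 3.73% to 7.11% of the gene-level reads in KPC-OG and 20.8% to 30.0% in KPC. Levels are given below as CPM, reads scaled by the library size multiplied by its TMM factor, with libraries in the order 1 to 4. On this scale 1 read was worth 0.0259 to 0.0655 CPM in KPC-OG libraries and 0.169 to 0.265 CPM in KPC libraries, so low levels were measured less precisely in KPC. Acinar markers stood at a summed 53960 to 205300 CPM in KPC-OG and at 372000 to 609400 CPM in KPC, so the pancreatic label held in all 8 libraries. Of the 12 acinar markers 10 were called lower (5 without KPC 1 or without KPC-OG 2), beside 16.6% of all tested genes. Among them was Rbpjl, which fell by 1.59 on the log2 scale. KPC-OG 2 and KPC-OG 3 stood apart in liver markers, with summed levels of 269.4 and 316.3 CPM against 20.4 and 22.7 CPM in the other KPC-OG libraries and 14.6 to 28.5 CPM in KPC. Of the liver markers 2 of 3 tested were called higher, of the spleen red pulp and blood markers 3 of 6 and of the islet markers 1 of 8 (Ppy). Over all tested genes 17.4% were called higher. Leaving out single libraries took the first 2 of these list counts to 0. The count of chemokine genes called is therefore also given without that pair of libraries.

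Of the 70 records, 45 had enough reads to be tested and 25 did not. By edgeR's quasi-likelihood test with Benjamini-Hochberg adjustment over all 14267 tested genes, 18 members passed the threshold of 0.05 as higher in KPC-OG and none as lower. At an unadjusted p under 0.05, 1 member (Cxcl12) was lower, and DESeq2 and limma-voom called none lower. The 18 were 40% of the tested members, whereas 17.4% of all tested genes were called higher and 16.6% lower. They comprised 12 of 26 tested ligands and 6 of 19 tested receptors. The median log2 fold change was 0.93 over the tested members and 0.09 over all tested genes, and 82.2% of the members and 55% of all genes had a positive value. In 18 tested members every KPC-OG library lay above every KPC library, a pattern held by 17.6% of all tested genes, and in none did every KPC-OG library lie below, against 17% of all genes. The low-count filter asked for enough reads in as many libraries as a group holds. A member low in any KPC library could therefore enter the test only with the help of KPC-OG libraries. Of the 18 called members 8 had under 10 reads in every KPC library. Ackr4 and Ccl8 were also low in KPC 1, with 6 and 7 reads. These counts are thus a description of the members tested and not of all 70.

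Without KPC-OG 2 and KPC-OG 3, 16 members were called higher and none lower (Ackr2 and Ackr4 missed the threshold), and leaving out any single library left 15 to 19 higher. All 18 fold changes stayed positive under the other scalings tried, except that of Ackr2 (-0.07), which was computed on TPM with a pseudocount of 1 and re-centred on the median gene. That setting also gave 13 higher calls and 4 lower ones (Ccr9, Ccr3, Ccr4 and Xcr1), and over all genes the split of 2486 higher and 2373 lower became 917 and 1400 when plain library sizes were re-centred on the median gene. The files' headers record 24 processing threads for 5 libraries and 8 for the others (KPC-OG 3, KPC 2 and KPC 3). Within the 24-thread libraries alone all 18 were positive and 14 passed the test, and within the 8-thread libraries, 1 against 2, all 17 that could be tested were positive and none passed, in a fit with a single KPC-OG library that called 1 gene in all.

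**Figure D1:**
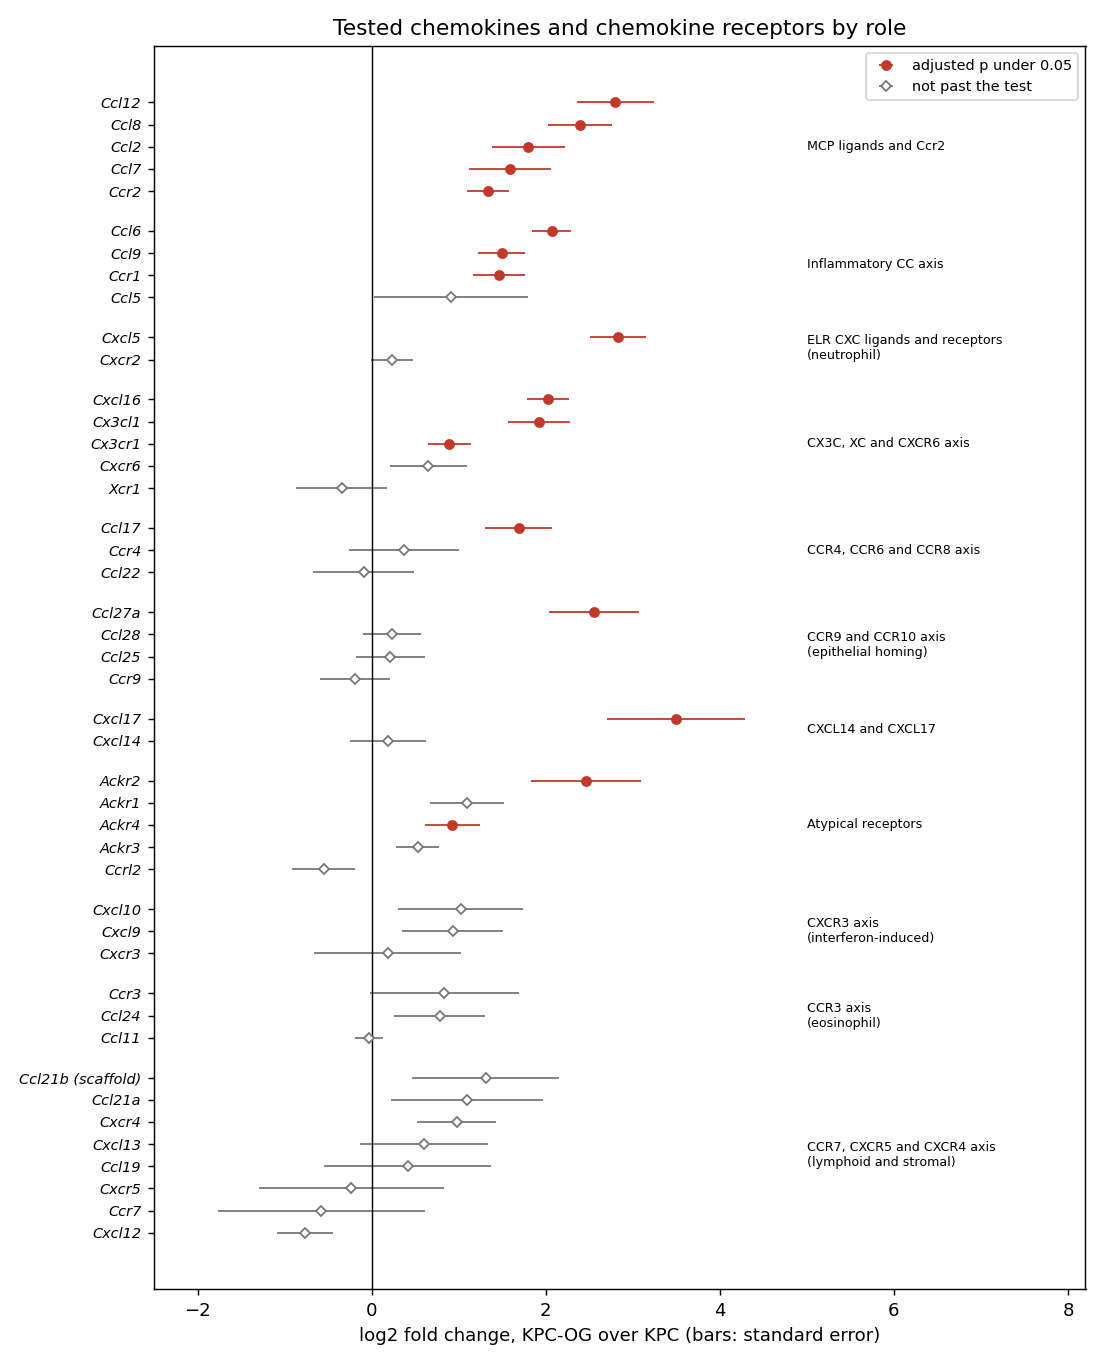
Log2 fold change (KPC-OG over KPC) of 44 tested chemokine and chemokine receptor genes on the horizontal axis, ordered by role down the page, with bars for the standard error. Filled points passed the edgeR test at an adjusted p under 0.05: all 17 drawn lie to the right of 0, including every gene of the MCP and Ccr2 group and none of the CXCR3, CCR3 or lymphoid and stromal axes.

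The ligand genes of the monocyte chemoattractant protein (MCP) group rose together with Ccr2. In the mouse Ccr2 is the receptor gene of all of them but Ccl8. Ccl2, Ccl7, Ccl8, Ccl12 and Ccr2 passed the test (5 of 5, median log2 fold change 1.80), beside 17.4% of all tested genes called higher. Ccl2 and Ccl7 had 20 and 13 reads over the KPC libraries, Ccl12 had 6, and Ccl8 had 7 in KPC 1. These ligand genes thus entered the test with the help of KPC-OG libraries, where they were high. The count of 5 therefore describes tested genes only. Ccl2 (MCP-1), the principal monocyte attractant, measured 4.99, 2.82, 2.29 and 3.78 CPM in the KPC-OG libraries, against 0.382, 0.939, 1.59 and 1.18 CPM in the KPC libraries. Its log2 fold change was 1.80 ± 0.42 (SE) with an edgeR adjusted p of 0.00875. Ccl12 (MCP-5), a CCR2 ligand of the mouse, stood at 1.92, 1.97, 1.899 and 2.68 CPM in KPC-OG and at 0.191, 0.188, 0.531 and 0.338 CPM in KPC, where it had 6 reads over the 4 libraries (2.80 ± 0.44 on the log2 scale, edgeR adjusted p = 0.00153). In each of these ligands the groups did not overlap. Ccl8 (MCP-2), which acts on CCR8 in the mouse although its human counterpart binds CCR2, gave 7.85, 10.4, 21.02 and 9.82 CPM in KPC-OG, highest in KPC-OG 3, and 1.34, 2.82, 2.39 and 2.701 CPM in KPC. Its fold change was 2.39 ± 0.37 on the log2 scale (edgeR adjusted p = 0.00153). Ccl7 (MCP-3), another CCR2 ligand, was the least stable of the 4, at 2.31, 1.37, 1.702 and 2.35 CPM in KPC-OG and 0.191, 1.13, 0.531 and 0.675 CPM in KPC (1.59 ± 0.47 on the log2 scale, edgeR adjusted p = 0.0247). Its call was lost when any library other than KPC 2, KPC-OG 2 or KPC-OG 3 was left out, with adjusted p-values of 0.0552 to 0.0711.

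Ccr2, the receptor that monocytes use to leave the bone marrow, had the highest TPM of the receptor genes in both groups. It reached 55.2, 40.3, 49.4 and 77.2 CPM in KPC-OG, highest in KPC-OG 4, and 18.9, 15.96, 23.1 and 30.2 CPM in KPC. The groups were separate, with means of 55.5 ± 15.7 CPM in KPC-OG and 22.05 ± 6.18 CPM in KPC (SD, n = 4 each), a log2 fold change of 1.33 ± 0.24 and an edgeR adjusted p of 0.00297. Macrophage and monocyte markers moved with these genes: 9 of the 12 rose and none fell, beside 17.4% of all tested genes called higher. Those that rose included Cd14 (2.33 ± 0.22 on the log2 scale, edgeR adjusted p = 0.000464) and C1qb (1.62 ± 0.19, adjusted p = 0.000572). Itgam, Ly6c2 and Marco did not pass (log2 fold changes 1.82, 1.14 and 0.19, edgeR adjusted p = 0.0809, 0.331 and 0.911). The summed level of the 12 markers was 801.5 to 1111 CPM in KPC-OG and 233.2 to 476.5 CPM in KPC. None of the 12 was at 0 in either group, and their part in the rise of the chemokine genes was not tested.

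The MCP genes are neighbours on chromosome 11 (GRCm38), in the order Ccl2 (82035571 to 82037453), Ccl7 (82045712 to 82047525), Ccl11 (82057823 to 82062955), Ccl12 (82101845 to 82103400) and Ccl8 (82115185 to 82116799). Ccl11, the gene of the eosinophil attractant eotaxin, lies between Ccl7 and Ccl12 and measured 7.21, 6.12, 7.203 and 6.07 CPM in KPC-OG and 6.303, 7.14, 6.37 and 7.26 CPM in KPC. The log2 fold change of Ccl11 was -0.03 ± 0.16 (edgeR adjusted p = 0.902), with the smallest standard error of the 45 tested members, and its sign turned under several alternative settings. Of the 10 tested chemokine and receptor genes on chromosome 11, 7 rose, beside 17.4% of all tested genes. The 7 were all ligand genes, but only 1 of the 10 was a receptor gene (Ccr7) and 9 were ligand genes. The 100 bases before the start of the 2 called neighbours Ccl12 and Ccl8 are shown because both genes rose together, as the RefSeq promoter table (GRCm38.p6) gives them, 5′ to 3′ in the direction of the gene. Neither holds a match, marked by capitals in the sequences shown here, to the motifs searched (the NF-kappaB consensus, AP-1 TGANTCA, C/EBP TTGCNNAA, the interferon-stimulated response element and PU.1 GAGGAAGT, both strands).
Ccl12, chr11:82101745-82101844, plus strand: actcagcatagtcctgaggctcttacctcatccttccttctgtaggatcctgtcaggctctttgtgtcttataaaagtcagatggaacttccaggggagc
Ccl8, chr11:82115085-82115184, plus strand: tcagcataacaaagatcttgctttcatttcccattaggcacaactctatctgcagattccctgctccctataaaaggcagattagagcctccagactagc

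**Figure D2:**
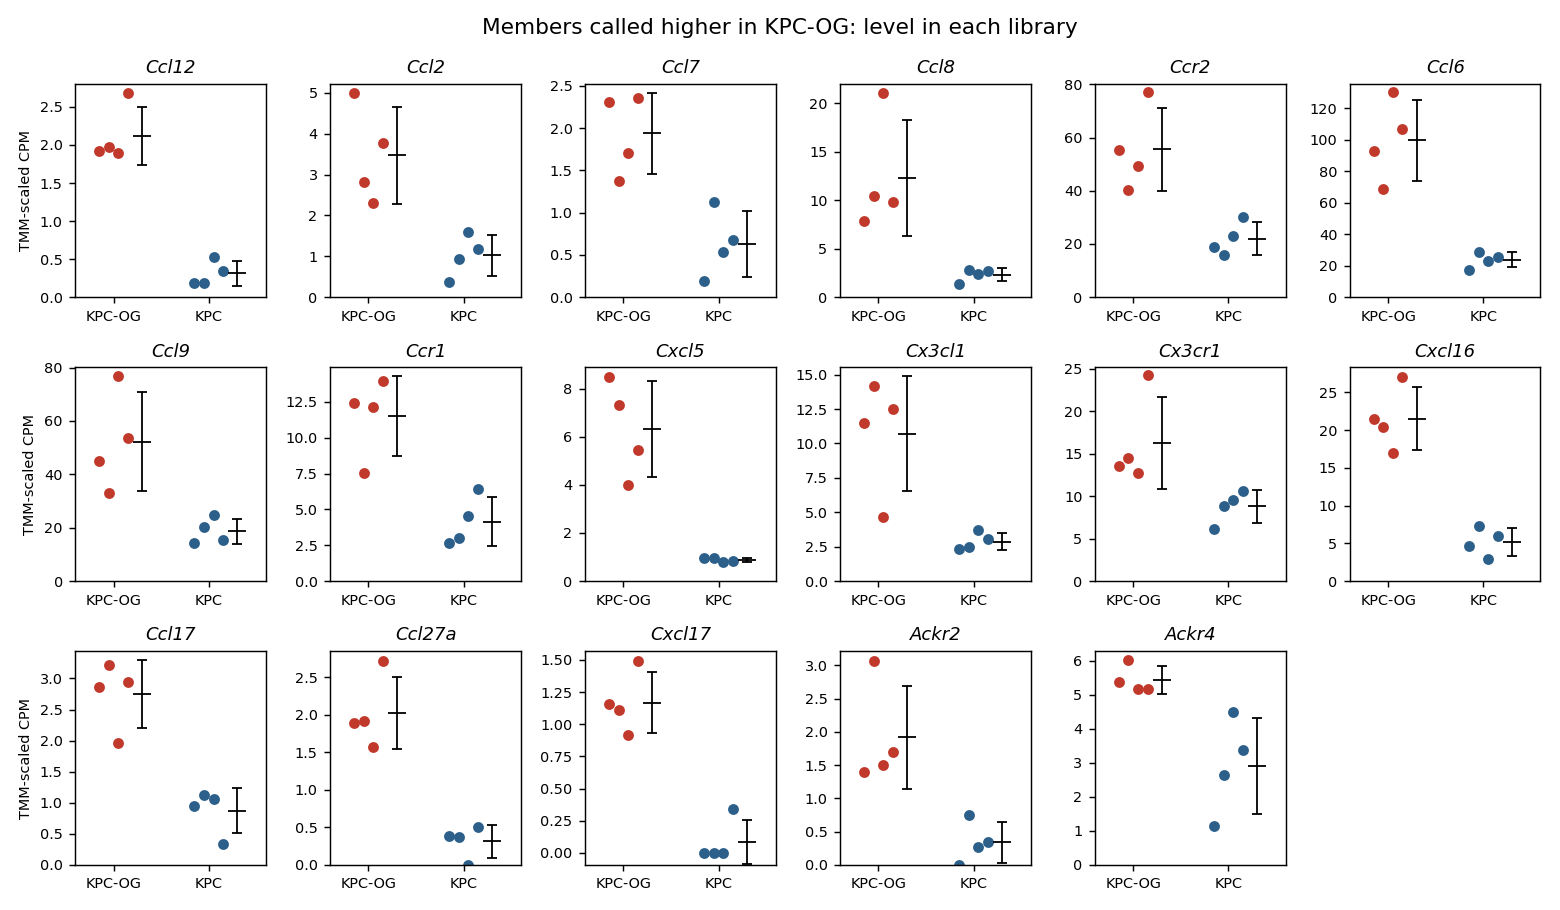
Level of 17 members called higher, in TMM-scaled CPM on axes of their own, with 1 point per library (KPC-OG left, KPC right) and the mean ± SD of 4 beside the points. In each panel the lowest KPC-OG library lies above the highest KPC library, and as a ratio the separation is narrowest for Ackr4 (5.17 CPM in KPC-OG 3 against 4.51 CPM in KPC 3).

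In the inflammatory CC group, the CCR1 ligand genes Ccl6 and Ccl9 and the receptor gene Ccr1 rose, and Ccl5 did not pass the test. Ccl6, a rodent CCR1 ligand made by myeloid cells, had the highest TPM of the family in KPC-OG and had the smallest adjusted p of the family. Its level was 92.6, 68.6, 129.9 and 107 CPM in KPC-OG against 17.4, 28.5, 23.1 and 25.7 CPM in KPC, means of 99.5 ± 25.7 and 23.7 ± 4.75 CPM (SD, n = 4 each). The lowest KPC-OG library, KPC-OG 2, lay well above the highest KPC library, KPC 2, and the log2 fold change was 2.07 ± 0.22 (edgeR adjusted p = 0.000464). Ccl9 (MIP-1 gamma), a second rodent CCR1 ligand, stood at 44.9, 33.1, 76.9 and 53.6 CPM in KPC-OG and 14.3, 20.1, 24.7 and 15.4 CPM in KPC (1.49 ± 0.27 on the log2 scale, edgeR adjusted p = 0.003). KPC-OG 3 was the highest library for Ccl6, Ccl9 and Ccl8 alike.

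Ccr1, the receptor of both ligands on monocytes and neutrophils, gave 12.5, 7.51, 12.1 and 13.99 CPM in KPC-OG and 2.67, 3.01, 4.51 and 6.42 CPM in KPC, again without overlap (1.46 ± 0.30 on the log2 scale, edgeR adjusted p = 0.00455). Ccl5 (RANTES), made by T cells, NK cells and macrophages, ranged more widely, from 0.852 to 5.55 CPM in KPC-OG and from 0 to 2.53 CPM in KPC (0.92 ± 0.88, edgeR adjusted p = 0.458). The genes of the macrophage inflammatory proteins Ccl3 and Ccl4 had 52 and 33 reads over the KPC-OG libraries and none in KPC, which left them untested.

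Of the 13 tested members on chromosome 9, all of them receptor genes, 6 rose, beside 17.4% of all tested genes. One run there holds Ccr9, Cxcr6, Xcr1, Ccr1, Ccr3 and Ccr2 in that order, and of these Ccr1 and Ccr2 passed the test. Ccr9, Cxcr6, Xcr1 and Ccr3 did not pass, with log2 fold changes of -0.19, 0.65, -0.35 and 0.83. Of the 20-base stretches of Ccr2 6.24% also occur in other genes.

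Ccl9 and Ccl6 are adjacent on chromosome 11 (83572919 to 83578636 and 83587882 to 83593087), both on the minus strand, and the bases before their starts are printed because both genes rose and the stretches share a run of 13 bases (gccctccacttcc), nearer the start in Ccl9. Capitals mark an AP-1 match (TGANTCA) followed by an NF-kappaB consensus match before Ccl9, and the Ccl6 stretch has no match to any motif searched.
Ccl9, chr11:83578637-83578736, minus strand: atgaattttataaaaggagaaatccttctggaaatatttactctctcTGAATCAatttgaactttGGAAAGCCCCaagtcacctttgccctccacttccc
Ccl6, chr11:83593088-83593187, minus strand: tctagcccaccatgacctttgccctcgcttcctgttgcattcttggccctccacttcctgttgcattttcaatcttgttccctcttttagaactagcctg

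Among the ELR-type CXC chemokines, the ligands of CXCR2 that attract neutrophils, Cxcl5 rose and the receptor gene Cxcr2 did not pass the test. Cxcl5 (LIX) measured 8.49, 7.33, 3.99 and 5.45 CPM in KPC-OG and 0.955, 0.939, 0.796 and 0.844 CPM in KPC, so the KPC libraries lay close together while KPC-OG ranged from its lowest library, KPC-OG 3, to its highest, KPC-OG 1. The Cxcl5 log2 fold change was 2.83 ± 0.32, with an edgeR adjusted p of 0.000569, from 806 reads in KPC-OG and 18 in KPC. Cxcr2 was near level, at 3.68, 3.96, 5.04 and 3.84 CPM in KPC-OG and 3.06, 4.51, 3.98 and 2.53 CPM in KPC (0.23 ± 0.24, edgeR adjusted p = 0.486). Of the neutrophil markers, which include Cxcr2, 1 of 5 tested rose, beside 17.4% of all tested genes. It was Csf3r (1.02 ± 0.32 on the log2 scale, edgeR adjusted p = 0.0315). The count was 0 without KPC 1, KPC 4, KPC-OG 1 or KPC-OG 3 and 3 without KPC 2. The summed level of the markers was 20.8 to 33.7 CPM in KPC-OG and 5.16 to 25.5 CPM in KPC. Mpo and Elane had no read in KPC. They averaged 0.144 and 0.0724 CPM in KPC-OG, below what 3 reads would give in KPC (0.148 CPM), so no ratio could be set. The part of the neutrophil markers in the level of Cxcl5 was not tested.

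The neighbouring ELR genes on chromosome 5 were near the limit of detection. Cxcl1 had 1.03, 1.06, 0.524 and 0.834 CPM in KPC-OG and 0.191, 0.376, 0.531 and 0.844 CPM in KPC, ranges that overlap. Cxcl2 had 42 reads in KPC-OG and 1 read in KPC, a ratio of 7.07 per effective library size with a 95% exact interval of 1.2 to 286, counting error only. Cxcl3, with 16 reads in KPC-OG and none in KPC, was below what 3 reads would give in KPC (0.148 CPM), so no ratio could be set. Cxcl15 (lungkine) had 35 and 6 reads in KPC-OG and KPC, and Cxcr1, the second ELR receptor gene, had 1 read in all 8 libraries, in KPC-OG 4. Cxcl1 and Cxcl2 are shown because their longest shared run, of 14 bases, holds the NF-kappaB consensus match, in capitals, which begins 71 bases before the start in Cxcl1 and 97 bases before it in Cxcl2. Of 32851 RefSeq promoter records 3.9% hold that consensus within 250 bases before the start. It was found in 10 of the 46 member genes with an entry and in 2 of the 12 called members with one (Ackr2 and Ccl9). The 46 genes have 55 records, and a gene counts if any of its records matches. The shares of genes and of records are therefore not in the same unit.
Cxcl1, chr5:90891145-90891244, plus strand: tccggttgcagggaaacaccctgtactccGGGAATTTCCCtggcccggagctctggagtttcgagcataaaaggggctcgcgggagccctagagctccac
Cxcl2, chr5:90903799-90903898, plus strand: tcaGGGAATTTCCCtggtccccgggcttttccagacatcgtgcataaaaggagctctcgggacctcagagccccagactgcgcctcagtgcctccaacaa

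The other motifs were likewise counted per gene for members and per record for all promoters. AP-1 was found in 6 of 46 member genes and 6.75% of all promoter records, and C/EBP in 5 of 46 and 9.56%. The interferon-stimulated element was found in 3 of 46 and 2.98%, and PU.1 in 1 of 46 and 2.44%. Among the 12 called members with an entry, AP-1 was found before Ccl9 and Ccl27a, C/EBP before Ccl27a, and the last 2 motifs before none. A match is a description of letters, and nothing here measured binding.

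Both transmembrane chemokine genes rose. Cxcl16, whose product is anchored on macrophages and epithelium and is the ligand of CXCR6, measured 21.5, 20.4, 17.02 and 27.1 CPM in KPC-OG and 4.58, 7.33, 2.92 and 5.91 CPM in KPC (2.03 ± 0.24 on the log2 scale, edgeR adjusted p = 0.000684). Cx3cl1 (fractalkine), an adhesive chemokine of epithelium and endothelium, gave 11.5, 14.2, 4.65 and 12.5 CPM in KPC-OG, with KPC-OG 3 well below the other libraries of its group, and 2.29, 2.44, 3.71 and 3.04 CPM in KPC (1.92 ± 0.35, edgeR adjusted p = 0.00303). Neither gene overlapped between the groups. Duct and metaplasia markers moved with them: 8 of 11 rose and none fell, beside 17.4% of all tested genes called higher. Those that rose included Krt7 (2.12 ± 0.20, edgeR adjusted p = 0.000464) and Cldn4 (2.28 ± 0.24, adjusted p = 0.000464). The summed duct level was 942.3 to 1751 CPM in KPC-OG, lowest in KPC-OG 3, and 285.7 to 466.2 CPM in KPC, and its part in these results was not tested.

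Cx3cr1, the fractalkine receptor of resident macrophages and monocytes, also rose. It stood at 13.5, 14.5, 12.8 and 24.2 CPM in KPC-OG and 6.11, 8.83, 9.55 and 10.6 CPM in KPC (0.89 ± 0.25 on the log2 scale, edgeR adjusted p = 0.0195), and its call was lost without KPC 1 (adjusted p = 0.0602). Cxcr6, the CXCL16 receptor of T and NKT cells, overlapped between the groups, with means of 2.08 ± 0.685 CPM in KPC-OG and 1.305 ± 0.638 CPM in KPC (0.65 ± 0.44, edgeR adjusted p = 0.277). Xcr1, the receptor of cross-presenting dendritic cells, averaged 1.15 ± 0.508 CPM in KPC-OG and 1.41 ± 0.873 CPM in KPC (-0.35 ± 0.52, edgeR adjusted p = 0.641), and its ligand gene Xcl1 had 30 reads in KPC-OG and none in KPC.

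Among ligands of chemokine receptors on T cells, Ccl17 rose. Ccl22, a second CCR4 ligand that lies near it on chromosome 8 with Cx3cl1 between them, did not pass the test. Ccl17 (TARC) measured 2.86, 3.21, 1.96 and 2.95 CPM in KPC-OG and 0.955, 1.13, 1.06 and 0.338 CPM in KPC (1.69 ± 0.38 on the log2 scale, edgeR adjusted p = 0.00785). Ccl22 (MDC) overlapped fully, at 0.852 to 3.14 CPM in KPC-OG and 0.382 to 3.71 CPM in KPC (-0.09 ± 0.58, edgeR adjusted p = 0.921). The receptor gene Ccr4 averaged 0.711 ± 0.164 CPM in KPC-OG and 0.532 ± 0.378 CPM in KPC (0.37 ± 0.63, edgeR adjusted p = 0.681). Of the markers of dendritic cells, a source of both ligands, 2 of 9 rose, beside 17.4% of all tested genes. These were Itgax and Cd209a, 1 of them when any library but KPC-OG 3 or KPC 4 was left out. The summed level of the markers was 23.8 to 37.6 CPM in KPC-OG and 11.5 to 35.5 CPM in KPC. Their part in the Ccl17 result was not tested.

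Ccl27a, a ligand of CCR10 known from skin epithelium, and Cxcl17, a mucosal chemokine, were among the largest fold changes and rested on few reads in KPC. Ccl27a had 1.89, 1.92, 1.57 and 2.71 CPM in KPC-OG and 0.382, 0.376, 0 and 0.507 CPM in KPC, with 251 and 7 reads (2.55 ± 0.51 on the log2 scale, edgeR adjusted p = 0.00451). Of its 20-base stretches 64.7% also occur in other genes, 43.8% in the predicted copy Gm20878, so its reads are split by estimation. With the Ccl27 records summed the log2 fold change was 1.56 ± 0.49 (edgeR adjusted p = 0.0325), and with the predicted copies Gm20878 and Gm13306 added it was 2.0 ± 0.41 (adjusted p = 0.00493). Cxcl17 measured 1.16, 1.11, 0.917 and 1.49 CPM in KPC-OG and 0, 0, 0 and 0.338 CPM in KPC, where both reads came from KPC 4. The ratio of its reads per effective library size was 12.2, with a 95% exact counting interval of 3.32 to 102. The fitted value was 3.50 ± 0.79 on the log2 scale (edgeR adjusted p = 0.00775) and 7.51 without KPC 4, since the other KPC libraries had none.

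The remaining epithelial homing genes did not pass the test. Ccl28, a mucosal ligand of CCR10, averaged 3.38 ± 1.38 CPM in KPC-OG and 2.86 ± 0.627 CPM in KPC, Ccl25, the ligand of CCR9, 1.08 ± 0.164 and 0.908 ± 0.347 CPM, and Ccr9 itself 1.99 ± 0.904 and 2.25 ± 0.424 CPM. Their log2 fold changes were 0.24, 0.21 and -0.19. Cxcl14, a chemokine of epithelium and fibroblasts, ran at 3.74, 1.89, 6.48 and 3.75 CPM in KPC-OG and 4.39, 1.31, 3.45 and 4.56 CPM in KPC, with overlapping ranges (0.19 ± 0.44, edgeR adjusted p = 0.772).

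Of the 5 atypical receptor genes, Ackr2 and Ackr4 rose. Ackr2 (D6), a scavenger of inflammatory CC chemokines such as Ccl2 and Ccl17, gave 1.4, 3.06, 1.51 and 1.697 CPM in KPC-OG, highest in KPC-OG 2, and 0, 0.751, 0.265 and 0.338 CPM in KPC, with 7 reads in all (2.46 ± 0.63 on the log2 scale, edgeR adjusted p = 0.0134). Its call was lost without KPC-OG 2 and KPC-OG 3 (adjusted p = 0.0696) and by limma-voom (0.0567). The fold change was 3.22 without KPC 2, and on TPM with a pseudocount of 1, re-centred on the median gene, it was -0.07. Ackr4, a scavenger of Ccl19, Ccl21 and Ccl25, was narrowly spread in KPC-OG and widely in KPC: 5.39, 6.04, 5.17 and 5.18 CPM in KPC-OG and 1.15, 2.63, 4.51 and 3.38 CPM in KPC. Ackr4 had the largest adjusted p of the called members (0.93 ± 0.32, edgeR adjusted p = 0.0441), and it was lost when 1 library was left out, unless that was KPC 3 or KPC-OG 3, with adjusted p-values of 0.0676 to 0.107.

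Ackr1, the Duffy receptor of venules and red cells, measured 1.31 to 1.92 CPM in KPC-OG and 0.382 to 1.35 CPM in KPC and missed the threshold (1.095 ± 0.43, edgeR adjusted p = 0.07). Endothelial markers, a list that holds Ackr1, had 2 of 10 higher, beside 17.4% of all tested genes. These were Flt4 and Vwf, 1 of them without KPC 1 or without KPC-OG 4. The summed level of the markers was 93.7 to 140.7 CPM in KPC-OG and 83.8 to 127.2 CPM in KPC. Ackr3, a scavenger of Cxcl12, stood at 9.102, 9.15, 5.57 and 10.8 CPM in KPC-OG and 4.58, 4.88, 6.899 and 7.77 CPM in KPC (0.53 ± 0.25, edgeR adjusted p = 0.127). Ccrl2, which binds chemerin, had a negative fold change and overlapping groups, with means of 1.95 ± 0.343 CPM in KPC-OG and 2.89 ± 1.31 CPM in KPC (-0.55 ± 0.36, edgeR adjusted p = 0.261).

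None of the CXCR3 axis passed the test. These ligands are induced by interferon gamma and attract activated T and NK cells. Cxcl9 ran from 1.096 to 5.29 CPM in KPC-OG and from 0.531 to 3.55 CPM in KPC (0.93 ± 0.58 on the log2 scale, edgeR adjusted p = 0.244). Cxcl10 averaged 1.72 ± 1.25 CPM in KPC-OG and 0.804 ± 0.7297 CPM in KPC (1.02 ± 0.72, edgeR adjusted p = 0.299), and Cxcl11 had 31 and 6 reads, too few to test. With standard errors of 0.58 and 0.72 these data do not settle whether either ligand gene changed. Cxcr3 had means of 0.818 ± 0.563 CPM in KPC-OG and 0.7004 ± 0.631 CPM in KPC (0.18 ± 0.84, edgeR adjusted p = 0.888).

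The CCR3 axis, which attracts eosinophils, likewise held no call. Apart from Ccl11, described above, Ccl24 (eotaxin-2) averaged 0.95 ± 0.331 CPM in KPC-OG and 0.556 ± 0.262 CPM in KPC (0.78 ± 0.52, edgeR adjusted p = 0.274), and Ccr3 1.197 ± 1.14 and 0.619 ± 0.493 CPM (0.83 ± 0.86, adjusted p = 0.485), with KPC-OG 3 at 2.88 CPM. Ccl26 had no read in any library. Of the 8 eosinophil and mast cell markers 3 were tested, beside 17.4% higher and 16.6% lower over all tested genes. Siglecf rose (2.34 ± 0.46, edgeR adjusted p = 0.00392), Kit fell (-0.82 ± 0.17, adjusted p = 0.00449) and Cpa3 did not pass. Kit averaged 12.4 CPM in KPC-OG and 21.8 CPM in KPC, within marker sums of 16.2 to 20.95 and 23.1 to 24.7 CPM. The untested Mcpt4, Tpsb2 and Cma1 averaged 0.974, 0.699 and 0.683 CPM in KPC-OG and 0.0947, 0.371 and 0.203 CPM in KPC. Epx, the eosinophil peroxidase gene, had no read in KPC. It averaged 0.0616 CPM in KPC-OG, below what 3 reads would give in KPC (0.148 CPM), so no ratio could be set.

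The homeostatic genes varied widely among libraries of both genotypes, and none of the 8 tested passed (median log2 fold change 0.51). Ccl21a, a CCR7 ligand of lymphatic vessels and lymph node stroma, ran at 27.8, 81.8, 31.04 and 41.9 CPM in KPC-OG and 2.101, 29.7, 2.39 and 49.5 CPM in KPC (1.096 ± 0.87 on the log2 scale, edgeR adjusted p = 0.367). KPC 2 and KPC 4 stood far above KPC 1 and KPC 3. Ccl19, the second CCR7 ligand, gave 1.55, 13.3, 2.88 and 3.33 CPM in KPC-OG and 0.191, 5.45, 0.796 and 8.95 CPM in KPC (0.41 ± 0.96, edgeR adjusted p = 0.771). Its fold change fell to -0.62 without KPC-OG 2 and was -0.68 without KPC-OG 2 and KPC-OG 3.

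Ccr7, the receptor that brings naive T cells and mature dendritic cells to these ligands, had the same libraries high: 0.365, 5.96, 4.58 and 1.25 CPM in KPC-OG and 0, 10.3, 0 and 7.09 CPM in KPC (-0.58 ± 1.19, edgeR adjusted p = 0.741). Cxcl13, the B cell attractant of follicles, measured 2.04, 8.55, 5.76 and 6.34 CPM in KPC-OG and 0.764, 6.76, 0.265 and 6.58 CPM in KPC (0.60 ± 0.74, edgeR adjusted p = 0.566), and its receptor gene Cxcr5 averaged 2.21 ± 1.98 CPM in KPC-OG and 2.51 ± 2.44 CPM in KPC (-0.23 ± 1.06, edgeR adjusted p = 0.886). For all 5 genes KPC 2 and KPC 4 were the highest KPC libraries and KPC-OG 2 the highest KPC-OG library. Lymphocyte markers were high in the same libraries. The summed B and plasma cell markers were 11.6, 198.6, 109.5 and 63.3 CPM in KPC-OG 1 to 4 and 11.5, 94.1, 7.16 and 142.8 CPM in KPC 1 to 4, with 0 of 7 called, and T and NK markers spanned 5.42 to 49.2 CPM in KPC-OG and 1.91 to 37.8 CPM in KPC, with 0 of 8 called. Lymph node stroma and high endothelial venule markers summed to 46.7, 184.9, 68.0 and 65.8 CPM in KPC-OG and 30.6, 97.1, 29.4 and 98.3 CPM in KPC. Of these markers 1 of 6 tested was higher (Chst4), beside 17.4% of all tested genes. The part of these cells or of nearby lymphoid tissue in the spread was not tested.

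**Figure D3:**
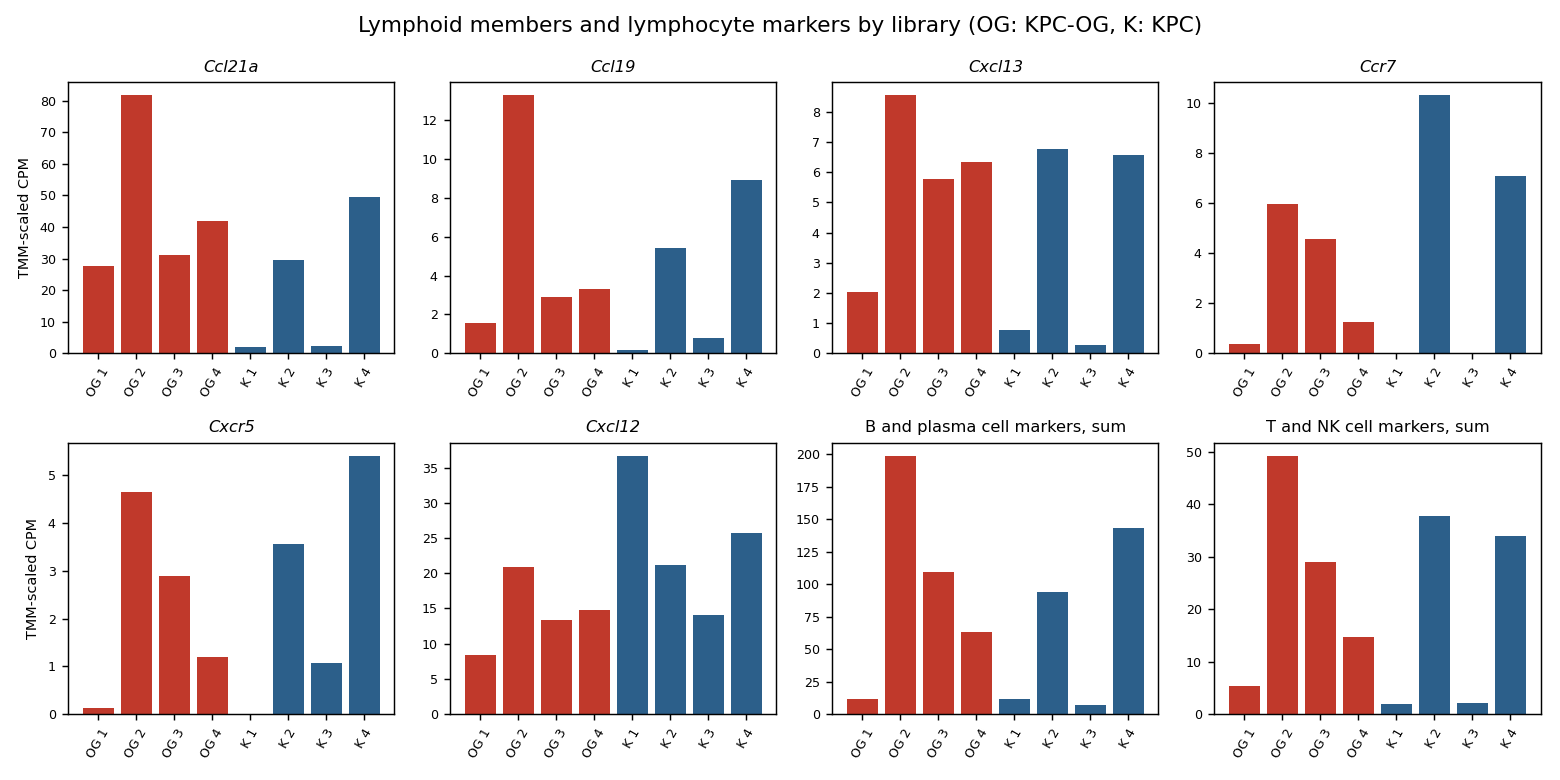
TMM-scaled CPM in each library (KPC-OG red and left, KPC blue and right) for 6 lymphoid and stromal chemokine system genes and for the summed B and plasma cell and T and NK cell markers, 1 bar per library. Within KPC-OG, Ccl21a, Ccl19, Cxcl13, Ccr7 and Cxcr5 and both marker sums are lowest in KPC-OG 1 and highest in KPC-OG 2, within KPC they are lower in KPC 1 and KPC 3 than in KPC 2 and KPC 4, and Cxcl12 has its highest level in KPC 1.

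Cxcl12, the stromal attractant that retains CXCR4-bearing cells, had the most negative fold change of the tested members. It measured 8.402, 20.96, 13.4 and 14.9 CPM in KPC-OG and 36.7, 21.2, 14.1 and 25.7 CPM in KPC, and the groups overlapped because KPC 3 was low and KPC-OG 2 high (-0.77 ± 0.32, edgeR adjusted p = 0.0939). Without KPC 3 it was called lower (-0.96, adjusted p = 0.0463), and likewise without KPC-OG 2 (-1.01, adjusted p = 0.0448). Of the markers of fibroblasts and pericytes, cells that make Cxcl12, 8 of 10 rose, beside 17.4% of all tested genes. Dpt (1.32 ± 0.20) and Pdpn (1.69 ± 0.30 on the log2 scale, edgeR adjusted p = 0.00125 and 0.00249) were among them. The summed level of the markers was 1695 to 4779 CPM in KPC-OG and 1033 to 1351 CPM in KPC. Cxcr4 ran at 6.36, 11.6, 7.46 and 5.001 CPM in KPC-OG and 2.101, 6.39, 1.06 and 5.403 CPM in KPC, with the 2 lowest libraries in KPC (0.98 ± 0.45, edgeR adjusted p = 0.123).

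The Ccl21 genes show how far near-identical copies limit these values. Over the 402 coding bases Ccl21b differs from Ccl21a by T84A and C194T (Ccl21a base first, positions counted from the first coding base), and the predicted copies Gm13304, Gm21541 and Gm10591 carry the same differences. Of the 20-base stretches of Ccl21a 86.5% occur in another gene, and of those of Ccl19 64.5%, mostly in the predicted copy Gm2564. The stretches around both differences are printed with the differing base in capitals, from the GENCODE M21 transcripts of chromosome 4.
Ccl21a, around position 84: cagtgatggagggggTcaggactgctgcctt
Ccl21b, around position 84: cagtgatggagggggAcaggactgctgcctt
Ccl21a, around position 194: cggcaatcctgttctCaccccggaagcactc
Ccl21b, around position 194: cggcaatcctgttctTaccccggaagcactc

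The Ccl21b record on an unplaced scaffold took reads in KPC 1 and KPC 3 (2.86 and 3.45 CPM) and none in KPC 2 and KPC 4, where Ccl21a was high, and it ran at 2.57 to 4.85 CPM in KPC-OG (1.31 ± 0.85, edgeR adjusted p = 0.261). The Ccl21 members summed averaged 49.7 ± 24.1 CPM in KPC-OG and 23.7 ± 22.0 CPM in KPC, a log2 fold change of 1.05 ± 0.70 (edgeR adjusted p = 0.285). Gm13304 had 348, 253, 49 and 422 reads in KPC-OG and 0, 0, 0 and 2 reads in KPC, and with the predicted copies added the sum gave 1.26 ± 0.69 (adjusted p = 0.196). The Ccl19 copies summed gave 0.43 ± 0.96 (adjusted p = 0.76) and with Gm2564 0.83 ± 0.88 (adjusted p = 0.507). No sum of the Ccl19 or Ccl21 copies passed the test. Among the 18 called members sharing was low: 10 had under 1% of their 20-base stretches in other genes and Ccl27a alone had 10% or more. Strand is not stated in the sources used here, and 6 of the 18 overlap another gene on the genome (Ackr4, Ccl2, Ccl27a, Cx3cr1, Cxcl16 and Cxcl17), so reads of those neighbours cannot be told apart where exons coincide.

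Per transcript length, CC ligand genes led the family in KPC-OG. In deposited TPM, which is set in order only within a group, Ccl6 came first in KPC-OG at 254.5 ± 70.5 TPM, followed by Ccl21a (140.0 ± 97.8), Ccl9 (74.7 ± 18.6), Ccl8 (56.4 ± 11.9), Ccr2 (42.6 ± 21.8) and Cxcl16 (30.3 ± 14.0; SD, n = 4). In KPC the order began with Ccl21a (20.4 ± 21.9 TPM) and Ccl6 (20.1 ± 7.53), which did not differ beyond their spread, then Ccl9 (6.92 ± 3.47), Cxcl12 (5.86 ± 1.57), Ccr2 (5.21 ± 1.62) and Ccl11 (5.07 ± 0.94). From Ccl9 to Ccl11 neighbours in the KPC order lay within 1 SD of each other. In KPC-OG every library of Ccl6 lay above every library of Ccl9, whereas Ccl21a (55.4 to 272.9 TPM) overlapped both, and Ccl9 and Ccl8 overlapped each other. Cxcl12 was the fourth gene of the order in KPC and lay below Ccl17 in KPC-OG (14.1 and 14.3 TPM).

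**Figure D4:**
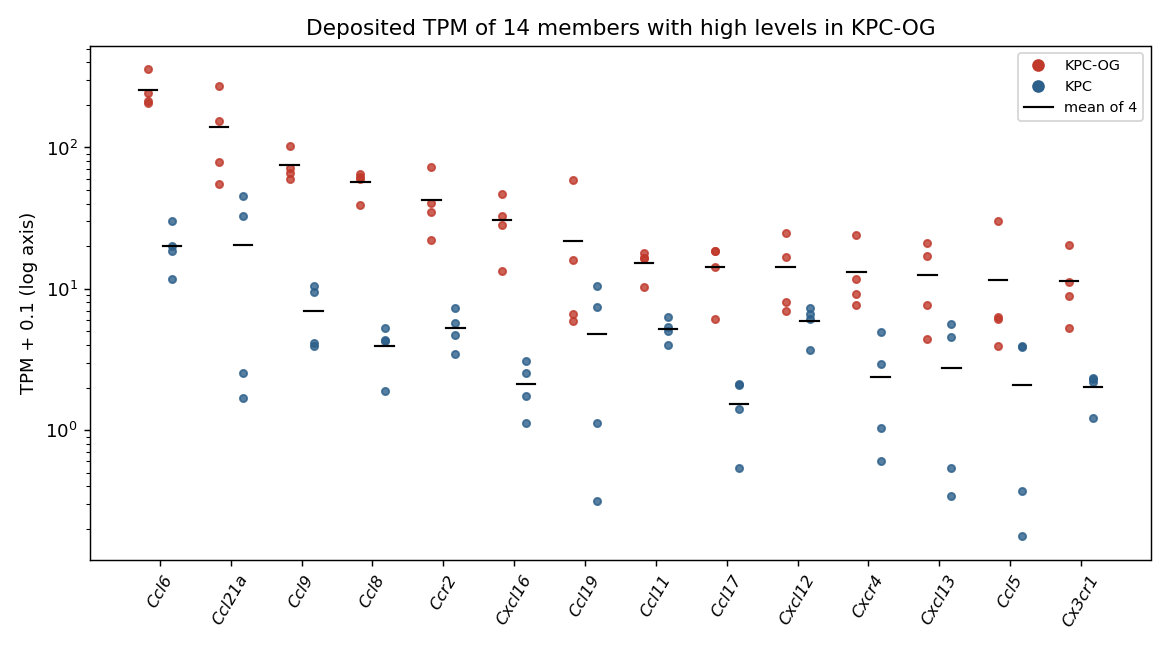
Deposited TPM (plus 0.1, log axis) of 14 members with high levels in KPC-OG, with 1 point per library (KPC-OG red and left, KPC blue and right) and a line for the mean of 4. The KPC-OG order falls from Ccl6 at 254.5 TPM to Cx3cr1 at 11.3 TPM; TPM is scaled within a library, and the median gene differed by 1.31 between the groups on the log2(TPM + 1) scale, so the gap between colours is not a measure of change.

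Of the 25 records below the filter, 7 had no read in any library: Ccl26, Ccl21c, Ccl27b, Ccl19-ps3, both other Ccl21b records and the scaffold copy of Ccl19. A further 9 had no read in KPC but some in KPC-OG. Against the level that 3 reads over the KPC group would give, Ccl3 (MIP-1 alpha) was at least 3.13-fold higher in KPC-OG, Ccl20, the CCR6 ligand, at least 2.24-fold, Ccr10 at least 1.88-fold and Ccl4 (MIP-1 beta) at least 1.75-fold. Xcl1 had 23 of its 30 reads in KPC-OG 2 and none in KPC-OG 4, so no bound is given. Ccr8, Cxcl3, Ccl1 and Cxcr1, with 16, 16, 4 and 1 reads in KPC-OG, were too low for a bound. The remaining 9 (Ccr6, Cxcl1, Cxcl2, Cxcl11, Cxcl15, Ccl19-ps1, the scaffold Ccl21a and 2 scaffold Ccl27 records) had reads in both groups, at most 25 in a KPC library. With no low-count filter 20 of 63 members with reads were called higher, beside 2506 of all 21893 genes tested in that setting. The added calls were Ccl3 and Ccl20, both without a read in KPC.

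Of 33 tested genes on a list for chemokine receptor signalling and desensitization, 15 rose, 1 fell and 17 did not pass. The median log2 fold change was 0.67, beside 17.4% higher, 16.6% lower and a median of 0.09 over all tested genes. The list was wider than its name. It also held Mif, Cd74, Cmklr1, Rarres2 and the chemokine ligand genes Pf4 and Ppbp, whose symbols fall outside the rule. All of these but Ppbp, which was not tested, are among the genes that rose. The gene that fell was Gnai1, an inhibitory G protein alpha subunit (35.7 ± 7.11 CPM in KPC-OG and 83.4 ± 10.02 CPM in KPC, -1.22 ± 0.17 on the log2 scale, edgeR adjusted p = 0.000929). Gng2, a gamma subunit, rose (0.84 ± 0.20, edgeR adjusted p = 0.0094). Pik3r5, the regulatory subunit of the PI3-kinase that G proteins activate, rose by 1.35 ± 0.23 (adjusted p = 0.00205) and Grk5, a kinase that desensitizes receptors, by 1.52 ± 0.24 (adjusted p = 0.00148). Rarres2, the gene of the attractant chemerin, and Cmklr1, its receptor on macrophages, both rose (1.65 ± 0.24 and 1.09 ± 0.22, edgeR adjusted p = 0.00116 and 0.0043), whereas Ccrl2, the third gene of that system, did not pass. The count of higher genes fell to 9 without KPC 1 or KPC-OG 4 and to 8 without KPC 3 or KPC-OG 2, and to 8 without both KPC-OG 2 and KPC-OG 3.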

How the data were processed

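The comparison was KPC-OG over KPC, 4 libraries each, grouped by the sample titles. The deposited estimated counts, which need not be whole, come from Sailfish 0.6.3 per the file headers (20-base k-mers, 1000 iterations, bias correction, an index of Ensembl release 76). The deposited TPM values come from the same run per the file headers. Without giving a role, the submitters' processing notes list edgeR, limma, STAR 2.0.4b and bcl2fastq. The genome build is not otherwise given in the sources used here; names and coordinates are those of GENCODE M21 (GRCm38). The name of 1 shared allele and the values of 1 member gene are not reported here; the counts over members and over genes include that gene.

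Of 86127 transcripts 83827 matched a gene, and their estimated counts were summed per gene and rounded. The 2300 unmatched transcripts held 1.45% to 3.04% of reads in KPC-OG and 3.93% to 4.23% in KPC and were left out. edgeR 4.0.16 (R 4.3.3) was run with TMM scaling, filterByExpr and the robust quasi-likelihood test, without a block, and the Benjamini-Hochberg threshold was 0.05 over 14267 genes. TMM factors were 1.14 to 2.28 in KPC-OG and 0.483 to 0.653 in KPC. Standard errors are the log2 fold change over the root of F. Genes at 0 in KPC were set against a floor of 3 reads over the group, 0.148 CPM, and intervals and floors cover counting error only. DESeq2 1.42.0, limma-voom (limma 3.58.1), other scalings, filters, TPM, thinning, a replicate block and left-out libraries were tried as alternatives. The fits with the thread setting and with summed copies were chosen after seeing the data. No pair of libraries in a group agreed within sampling noise (chi-square per degree of freedom at least 14.7).

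The members and lists were chosen with earlier results of these data known. Values in all libraries are given for each called member and for the 10 most abundant tested members not called, from the pathway list up to 6 called genes with the smallest adjusted p, and up to 2 called genes from each marker list with the defining genes at 0. Promoter bases are RefSeq's (GRCm38.p6), found for 46 member genes.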

Additional observations from a re-analysis of the deposited data

Results flagged for a closer look

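Of 88 sets of 4 libraries (44 tested members in each group), 4 held a library whose gap to the nearest of the others exceeded Dixon's 95% critical value, which chance alone gives in about 1 set in 20. In KPC-OG 2, Ccl19 stood at 13.3 CPM, with 1.55, 2.88 and 3.33 CPM in the other KPC-OG libraries, and that library also had the highest summed B cell and T cell markers of its group. KPC-OG 4 was set apart in Cx3cr1 (24.2 CPM, others 13.5, 14.5 and 12.8 CPM) and in Ccl12 (2.68 CPM, others 1.92, 1.97 and 1.90 CPM), in both cases in the direction of the difference between the groups. Cxcl17 stood at 0.338 CPM in KPC 4, which is 2 reads, and at 0 in the other KPC libraries.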

How the results depend on the processing

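Under plain library sizes, TPM with a pseudocount of 1 and TPM with a pseudocount of 0.1, the median of all genes shifted by 1.74, 1.23 and 1.604 on the log2 scale. These settings called 13078, 12856 and 12817 genes higher and 99, 121 and 120 lower, and 42, 41 and 40 members higher, so only their re-centred values are comparable with the main result. Re-centred on the median gene they called 917, 987 and 616 genes higher, and 1400, 1594 and 1008 lower, and 14, 13 and 12 members higher. TPM with a pseudocount of 1, re-centred, called 4 members lower. DESeq2 and the RLE, upper quartile and 1 CPM settings called 18 members higher, limma-voom 12, and thinning to 1 effective depth 12 of 29 tested. Depth limits the low members: thinning left 13 of the 18 called members with enough reads to test. Leaving out 1 library gave 15 to 19 members higher and 0 to 1 lower, and 1689 to 2880 genes higher and 1705 to 2548 lower. The pathway count ran from 8 to 15 higher and was 8 without KPC-OG 2 and KPC-OG 3. In the 8-thread libraries alone, 1 gene was higher, 0 lower and 0 members called. By reads per kilobase, 9 and 8 of the 10 highest members by TPM in KPC-OG and KPC were shared. Ackr2 was the only called member whose sign turned under any alternative, and the cause of the sign changes was not tested.

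The labels do not say that the replicate numbers pair the libraries, and the correlations did not settle it. Deviations of same-numbered libraries correlated at 0.288, 0.291, 0.0588 and 0.0471. Each KPC-OG library correlated best with the KPC library of its own number. KPC 3 and KPC 4, however, correlated best with another number (0.152 with KPC-OG 1 and 0.210 with KPC-OG 2). With the number as a replicate block, 2477 genes were higher and 2417 lower, and 16 members were higher and none lower, Ccl7 (adjusted p = 0.0638) and Ackr4 (0.0558) missing the threshold.

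Log2 fold changes that turned sign were, under plain library sizes, Ccrl2 1.19, Ccl11 1.68, Ccl22 1.61, Ccr7 1.03, Cxcl12 1.05, Cxcr5 1.46, Ccr9 1.52 and Xcr1 1.37. With TPM and a pseudocount of 1 they were Ccrl2 0.67, Ccl11 1.40, Ccl22 0.80, Ccr7 0.77, Cxcl12 0.996, Cxcr5 0.62, Ccr9 0.62 and Xcr1 0.34, and with 0.1, Ccrl2 1.08, Ccl11 1.55, Ccl22 1.46, Ccr7 2.0, Cxcl12 1.1, Cxcr5 1.24, Ccr9 1.2 and Xcr1 0.95. Re-centred, the pseudocount of 1 gave Ackr2 -0.069, Ccl11 0.092, Ccl24 -0.28, Ccr3 -0.72, Ccr4 -0.83, Ccl28 -0.33, Cxcr6 -0.10, Cxcl14 -0.031, Cxcr3 -0.66 and Cxcr2 -0.16, and that of 0.1 gave Ccr4 -0.093, Ccr7 0.31, Ccl28 -0.054 and Cxcr3 -0.11. Ccl11 was 0.046 with upper quartile scaling and 0.0050 without a filter, and Ccr7 was 0.56 with limma-voom. Thinning gave Ccl22 0.025, Ccr7 0.091 and Cxcl14 -0.18. Without KPC-OG 2 and KPC-OG 3, Ccl5 was -0.36 and Ccl19 -0.68. The 8-thread libraries gave Ackr3 -0.061, Ccl11 0.10, Ccl22 0.27, Ccl19 -0.17, Cxcr5 0.27, Ccl28 -0.39, Ccr9 0.16 and Xcr1 0.46, and the 24-thread libraries Ccr3 -0.64, Ccl25 -0.24 and Cxcl14 -0.55. With 1 library left out the ranges that crossed 0 were Ccl11 -0.072 to 0.011, Ccl22 -0.46 to 0.42, Ccr4 -0.051 to 0.72, Ccl19 -0.62 to 1.25, Ccr7 -1.19 to 0.24, Cxcr5 -0.94 to 0.48, Ccl28 -0.057 to 0.43, Ccr9 -0.44 to 0.060, Xcr1 -0.57 to 0.21, Cxcl14 -0.12 to 0.43 and Cxcr3 -0.24 to 0.95.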
